A study of Mus musculus with 6 samples.

Results

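The Toll-like receptors of the mouse kidney are described here across control and lupus-prone mice. The members were the probes whose annotated gene name was Tlr1, Tlr2, Tlr3, Tlr4, Tlr5, Tlr6, Tlr7, Tlr8, Tlr9 or Tlr13. The 10 genes had 21 probes among the 56605 probes of the array, and 16 of the 21 were bright enough to be tested. TA was performed on whole kidneys of 3 female MRL/MpJ mice (MRL) and 3 female MRL/MpJ-Fas lpr/lpr mice (LPR), all at 6 months of age with no treatment named, with 1 array per mouse. MRL is the background strain of LPR. LPR mice carry the lpr mutation of Fas, the death receptor that removes activated lymphocytes, on both copies in every cell of the body.

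Toll-like receptors recognize microbial molecules, and also nucleic acids and other products of the host's own dying cells. Tlr1, Tlr2, Tlr4, Tlr5 and Tlr6 act mainly at the cell surface, where they sense lipopeptides, lipopolysaccharide and flagellin. Tlr3, Tlr7, Tlr8, Tlr9 and Tlr13 act in endosomes, where they sense RNA or DNA, and in lupus the endosomal receptors are studied for their response to immune complexes that carry nucleic acid.

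Each value is a log2 signal relative to the 75th percentile of its array, so a value below 0 is a signal under that percentile, and a log2 change is LPR minus MRL. Tests are from limma, fitted over 39924 probes, with Benjamini-Hochberg adjustment and a threshold of 0.05. Signals of different probes cannot be ranked as amounts of transcript. Between 69.6% and 73.5% of the spots of an array were well above background, and no spot was saturated. Arrays correlated at 0.990 to 0.993 within groups and at 0.961 to 0.971 between groups. The median change over all tested probes was -0.13, so the array as a whole lay slightly below 0. The brighter probe of Fas did not pass the threshold, with a log2 change of -0.47 (adjusted p = 0.235 in limma). A dimmer Fas probe stood above background in LPR mice alone, with a signal at least 1.47-fold higher there. Its adjusted p of 0.0337 in limma is from the signals as measured and not from that bound. Where the probes lie relative to the lpr mutation was not examined, so they do not serve as a check of the labels.

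In the kidneys of LPR mice, 6 of the 10 receptor genes were higher than in MRL mice and 0 were lower. They were Tlr1, Tlr2 and Tlr6 at the cell surface and Tlr7, Tlr8 and Tlr13 in endosomes. With the row of the slide as a block, or with the methods' test after Benjamini-Hochberg adjustment, the count was 3 genes. Of all 25805 genes tested by their brightest probe, 7.12% were higher and 5.39% lower. By single probes, 9 of the 16 tested receptor probes were higher and 0 lower, beside 6.54% higher and 6.07% lower of all tested probes. Tlr3, Tlr4, Tlr5 and Tlr9 did not pass the threshold with their brightest probes. Only 1 of the 16, a dim Tlr8 probe, was tested although no MRL array had it well above background. Of the 9 called probes, Tlr13 A_66_P125902 was well above background on 1 MRL and 3 LPR arrays. It too was tested through the LPR arrays. In whole kidney, a higher signal from more cells of a type cannot be told apart from more RNA in each cell.

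**Figure D1:**
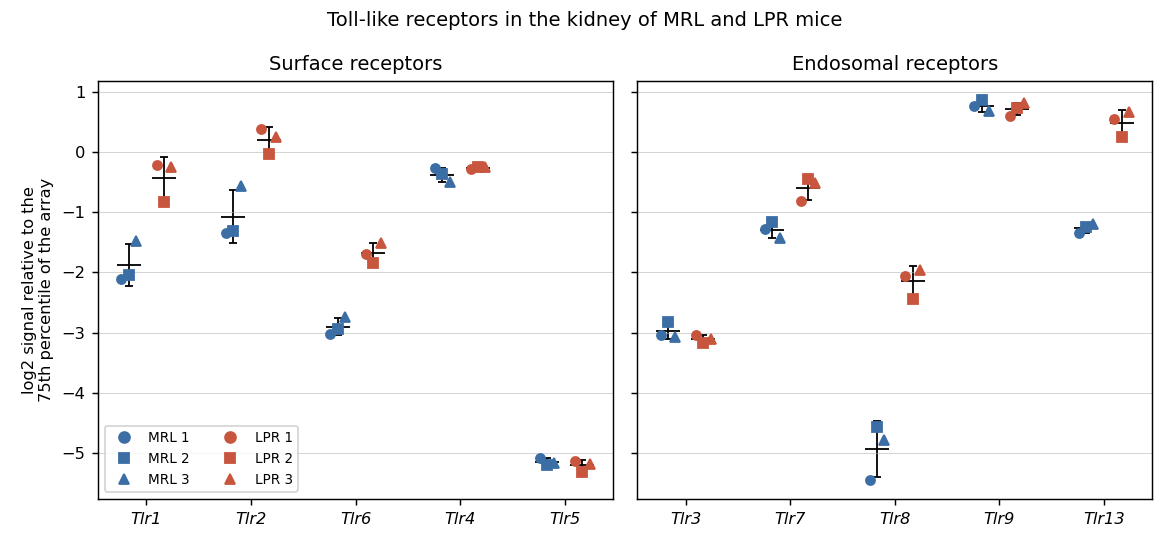
Log2 signal relative to the 75th percentile of the array (y axis) of the brightest tested probe of each of the 10 receptors, by mouse, with the mean and SD of 3 mice as bars, surface receptors on the left and endosomal receptors on the right. The LPR mice lie above all MRL mice for Tlr1, Tlr2, Tlr6, Tlr7, Tlr8 and Tlr13, and the groups overlap for Tlr3, Tlr4, Tlr5 and Tlr9. The share of all genes without overlap was not counted, so whether such separation is particular to the receptors is not known. Heights of different genes come from different probes and are not comparable.

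Tlr2, the shared partner in the receptors for bacterial lipopeptides, was measured by 1 probe on chromosome 3 (A_51_P452629, mm9 chr3:83640344-83640403). The log2 signals were -1.35, -1.30 and -0.56 in MRL mice and 0.39, -0.03 and 0.25 in LPR mice. All 3 LPR mice lay above the highest MRL mouse, MRL 3. The log2 change was 1.27 (SE 0.23, adjusted p = 0.0159 in limma), a 2.42-fold rise. Without MRL 1, MRL 2, LPR 1 or LPR 3, and with the row of the slide as a block, the change stayed above 1 but did not pass the threshold.

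Tlr1, which pairs with Tlr2 to bind triacylated lipopeptides, had 2 probes that lie close together on chromosome 5 (A_66_P137861, mm9 chr5:65315994-65316053, and A_51_P495581, mm9 chr5:65316115-65316174). At the brighter probe, A_66_P137861, the log2 signals were -2.11, -2.04 and -1.47 in MRL mice and -0.21, -0.83 and -0.24 in LPR mice. The groups did not overlap, and LPR 2 was the lowest LPR mouse. The log2 change was 1.45 (SE 0.24, adjusted p = 0.0097 in limma). The second probe gave nearly the same size, 1.58 (adjusted p = 0.0081 in limma). With the slide row as a block the brighter probe did not pass (adjusted p = 0.0576 in limma).

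Tlr6, which pairs with Tlr2 to bind diacylated lipopeptides and is a neighbour of Tlr1 on chromosome 5, had 1 probe (A_52_P117393, mm9 chr5:65344365-65344424). Its log2 signals were -3.03, -2.94 and -2.75 in MRL mice and -1.70, -1.84 and -1.51 in LPR mice. The mice of each group lay within 0.33 of one another, and the groups were separated by 0.91. The log2 change was 1.22 (SE 0.13, adjusted p = 0.0015 in limma). Tlr1 and Tlr6 are close relatives. Across the probes of different receptors the longest identical run was 10 of 60 bases. Probes were compared only with one another, so whether a probe also reads the other gene's transcript was not tested.

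Tlr4, the lipopolysaccharide receptor, gave different answers by probe, and the start of 2 probes is shown to identify them. The brightest, A_55_P2714823, was designed to an Ensembl transcript named Tlr4 (mm9 chr4:66591199-66591258), and A_51_P300806 to the RefSeq transcript (mm9 chr4:66503724-66503782). They lie 87417 bases apart, which is more than the 19031 bases that the RefSeq gene spans in GRCm38, so whether the brightest probe reads the same transcript is not known from its name. The first 30 bases of each are as follows.
Tlr4 A_55_P2714823: tcttccatagtttgtgcttcatgtccctgc
Tlr4 A_51_P300806: tgtgatagggctttaaatagttgagctaat

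At the Ensembl probe the log2 signals of Tlr4 were -0.26, -0.37 and -0.50 in MRL mice and -0.28, -0.25 and -0.25 in LPR mice. The groups overlapped, with a log2 change of 0.11 (95% interval -0.13 to 0.36, adjusted p = 0.492 in limma). At the RefSeq probe A_51_P300806 the signals were -2.35, -2.61 and -2.58 in MRL mice and -1.72, -2.20 and -2.01 in LPR mice. Here the LPR mice lay above the MRL mice, but the log2 change of 0.54 (95% interval 0.18 to 0.90, adjusted p = 0.0657 in limma) did not pass. This probe passed under 8 of 23 alternatives, among them normexp (adjusted p = 0.0472 in limma), quantile normalization (adjusted p = 0.0480 in limma), an intensity trend (adjusted p = 0.0393 in limma) and leaving out LPR 2 (adjusted p = 0.0467 in limma). The remaining Tlr4 probe was well above background on 1 LPR array alone and was not tested.

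Tlr5, the receptor for flagellin, was dim. Its tested probe on chromosome 1 (A_66_P111367, mm9 chr1:184905770-184905829) gave log2 signals of -5.08, -5.20 and -5.17 in MRL mice and -5.13, -5.32 and -5.18 in LPR mice. The groups overlapped within a narrow range, and the log2 change was -0.06 (95% interval -0.31 to 0.19, adjusted p = 0.727 in limma). A second probe was well above background on 0 MRL arrays and 2 LPR arrays and was not tested.

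Among the endosomal receptors, Tlr8, a receptor for single-stranded RNA on the X chromosome, had the largest change of the 10 genes except under normexp background correction. At A_66_P131283 (mm9 chrX:163679328-163679387) the log2 signals were -5.45, -4.57 and -4.79 in MRL mice and -2.05, -2.44 and -1.96 in LPR mice. The lowest LPR mouse was 2.13 above the highest MRL mouse. The log2 change was 2.79 (SE 0.25, adjusted p = 0.0006 in limma), a 6.89-fold rise. It passed under every alternative, but with normexp the log2 change was 1.37, below that of Tlr13 (1.57).

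The other 3 Tlr8 probes lay at or near background in MRL mice. A_55_P2718309, designed to an Ensembl transcript, was well above background on 3 LPR arrays and 0 MRL arrays, which makes the LPR signal at least 1.14-fold higher. On the signals as measured this probe did not pass (adjusted p = 0.0554 in limma). A_55_P1996271, from the same RefSeq transcript as the brightest probe, gave -7.83, -8.19 and -8.17 in MRL mice and -5.86, -5.70 and -6.05 in LPR mice, with 0 and 2 arrays above background, and was not tested. The fourth probe was above background on no array, so the size of the Tlr8 rise rests on 1 probe.

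Tlr7, the neighbour of Tlr8 on the X chromosome and also a receptor for single-stranded RNA, rose at both tested probes but by unequal amounts. A_55_P2050932 and A_55_P2129047 were designed to the same RefSeq transcript and lie close together (mm9 chrX:163742863-163742922 and chrX:163743146-163743205). Their first 30 bases are shown because they differ in kind, the first holding a run of alternating t and c. Whether that probe reads Tlr7 alone was not tested, although it stands for Tlr7 as the brightest.
Tlr7 A_55_P2050932: tctctctctctgatactgaactgtaccaga
Tlr7 A_55_P2129047: cataaatgaaggtctgaatttttcctaaca

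At the brighter Tlr7 probe, A_55_P2050932, the log2 signals were -1.28, -1.16 and -1.43 in MRL mice and -0.82, -0.44 and -0.51 in LPR mice. The groups did not overlap, and the log2 change was 0.70 (SE 0.14, adjusted p = 0.0222 in limma). At A_55_P2129047 the signals were -4.59, -3.92 and -4.02 in MRL mice and -2.10, -2.43 and -2.19 in LPR mice. The gap between the groups here was 1.49, and the log2 change was 1.94 (SE 0.20, adjusted p = 0.0012 in limma). The second probe passed under all alternatives tried, whereas the brighter one failed under 9 of 23, among them no filter on dim probes (adjusted p = 0.0513 in limma) and the slide row as a block (adjusted p = 0.176 in limma). The remaining Tlr7 probe was above background on no array.

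Tlr13, the receptor for a sequence in bacterial ribosomal RNA and likewise X-linked, rose at both probes. At A_55_P2048279 (mm9 chrX:103355773-103355832) the log2 signals were -1.35, -1.25 and -1.20 in MRL mice and 0.55, 0.25 and 0.66 in LPR mice. The MRL mice differed by 0.15 at most, and the lowest LPR mouse was 1.45 above them. The log2 change was 1.75 (SE 0.13, adjusted p = 0.0003 in limma). A_66_P125902, well above background on 1 MRL and 3 LPR arrays and so tested through the LPR arrays, gave 1.98 (adjusted p = 0.0020 in limma). Its size depended on MRL signals near background, and under normexp background correction it was 0.52, against 1.57 at A_55_P2048279.

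Tlr9, the receptor for unmethylated CpG DNA, did not move with Tlr7. Its 1 probe (A_51_P432563, mm9 chr9:106128979-106129038) gave log2 signals of 0.77, 0.87 and 0.68 in MRL mice and 0.60, 0.73 and 0.81 in LPR mice. The groups overlapped, with LPR 1 lowest and MRL 2 highest, and the log2 change was -0.06 with a 95% interval of -0.32 to 0.21 (adjusted p = 0.765 in limma). That interval excludes a rise of the size measured at either Tlr7 probe, but the difference between the genes was not tested.

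Tlr3, the receptor for double-stranded RNA, did not pass at either probe. A_55_P2921249 (mm9 chr8:46495198-46495257), which reads the start of the transcript, gave -3.04, -2.82 and -3.07 in MRL mice and -3.04, -3.17 and -3.10 in LPR mice. The groups overlapped, with a log2 change of -0.13 (95% interval -0.39 to 0.14, adjusted p = 0.483 in limma). A_52_P85174, toward the other end, gave a log2 change of 0.34 (95% interval -0.01 to 0.68, adjusted p = 0.172 in limma). At this probe the groups did not overlap, with a gap of 0.08.

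**Figure D2:**
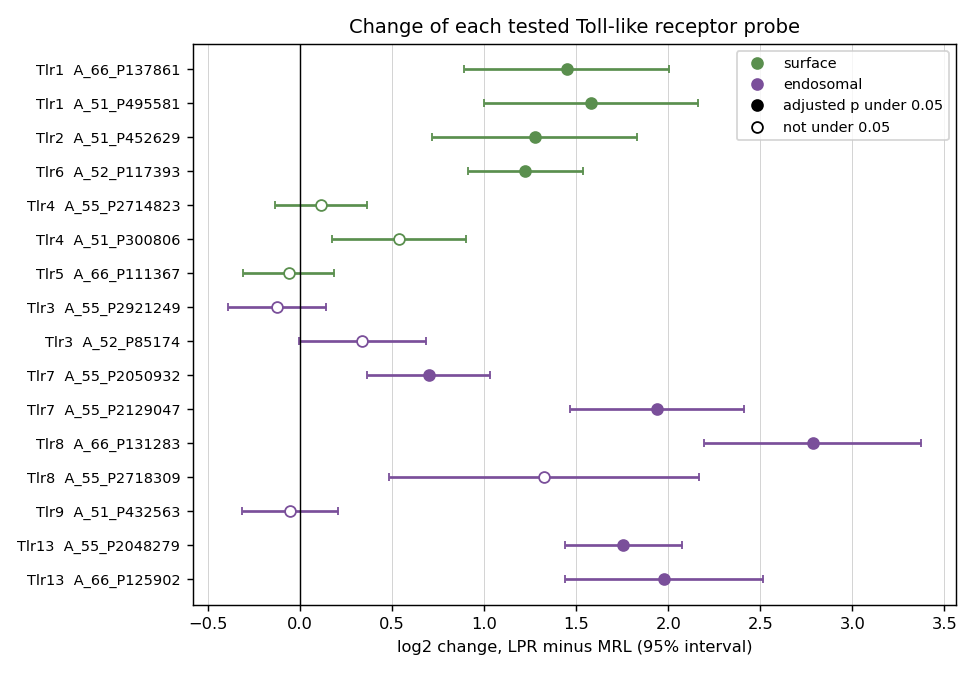
Log2 change, LPR minus MRL, with its 95% interval from limma (x axis), for each of the 16 tested probes (y axis, gene and probe), green for surface and purple for endosomal receptors, filled where the adjusted p was under 0.05. The 9 filled probes lie between 0.70 and 2.79, and no probe was called lower. For Tlr8 A_55_P2718309 no MRL array was above background, so its point depends on MRL signals at background and is not a bound.

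**Figure D3:**
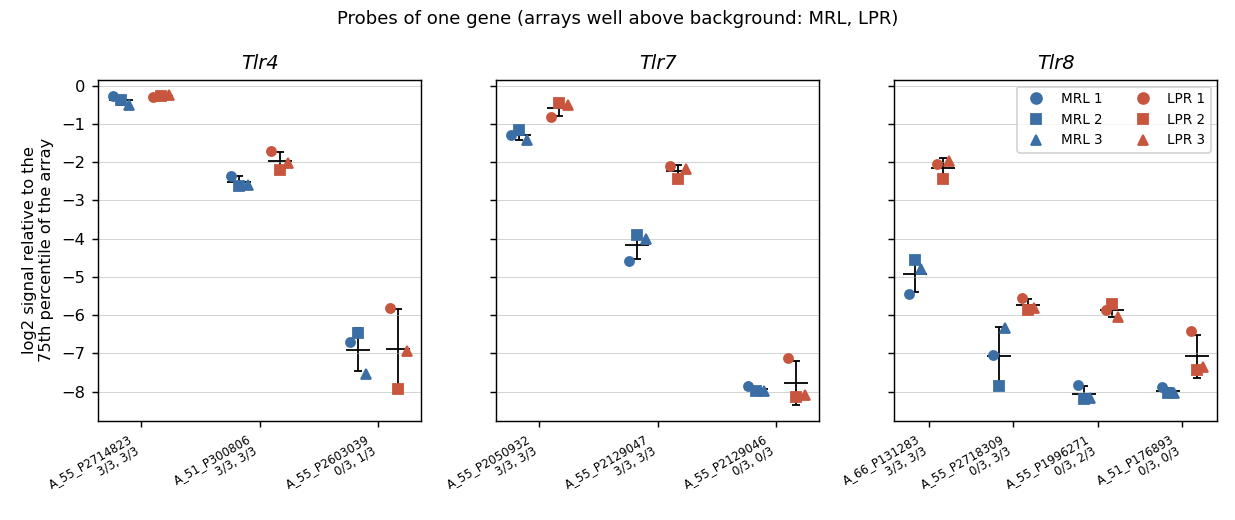
Log2 signal relative to the 75th percentile of the array (y axis) at every probe of Tlr4, Tlr7 and Tlr8, by mouse, with the mean and SD of 3 mice as bars. Below each probe stand the numbers of MRL and of LPR arrays on which it was well above background. The groups overlap at the brightest and the dimmest Tlr4 probe and at the dimmest Tlr7 probe. They are separated at Tlr4 A_51_P300806, at both brighter Tlr7 probes and at all Tlr8 probes. Only the brightest Tlr8 probe was well above background in MRL mice.

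Endosomal and surface receptors were set against each other by the median change of their genes. Each class had 3 of 5 genes higher. The median log2 change was 1.22 for the surface genes and 0.70 for the endosomal genes, beside -0.12 over all genes tested. In single mice, the endosomal minus the surface median was -0.74 in LPR 1, -0.20 in LPR 2 and -0.54 in LPR 3, and from -0.25 to 0.18 in MRL mice. The order of the classes depended on the probe that stood for Tlr7. With the mean of the probes of each gene the difference was 0.09 rather than -0.53. The order of the 2 classes thus changed with the probes used.

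The LPR mice differed among themselves in the same direction at most called receptor probes. Of the 9 called probes, among which Tlr1, Tlr7 and Tlr13 each have both of their tested probes, LPR 2 was the lowest LPR mouse at 8. The order was not counted over all probes, so whether it is particular to the receptors is not known. The median rise of LPR 2 over the MRL mean at the 9 probes was 1.16, against 1.82 in LPR 1 and 1.74 in LPR 3. The exception was the brighter Tlr7 probe, at which LPR 1 was lowest. LPR 1 shared the row of the slide with all 3 MRL mice, so its rise over the MRL mean is the value within that row. It was 1.67 for Tlr1, 1.46 for Tlr2, 1.21 for Tlr6, 0.47 for the brighter Tlr7 probe, 2.08 for the other Tlr7 probe, 2.88 for Tlr8 and 1.82 for Tlr13. With the row as a block Tlr6, Tlr8 and Tlr13 passed by their brightest probes, and Tlr1, Tlr2 and the brighter Tlr7 probe did not.

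The promoters of the receptors were read from RefSeq (GRCm38.p6, 250 bases before to 50 after a start), which held 10 promoters of 8 of the 10 genes. Each was searched on both strands for the interferon-stimulated response element (GAAA, 2 bases of any kind, GAAA), TTCNNNGAA (a STAT site), GAGGAA (the core of a PU.1 box), TGANTCA (AP-1), an NF-kappaB site (GGGA, 1 base of any kind, TTTCC) and TTNNGCAA (C/EBP). The windows of Tlr8, Tlr13 and Tlr6 are shown because these genes passed under every alternative. That of Tlr9 is shown as an example of a gene whose level did not pass. The windows of Tlr3 and Tlr5, which did not pass either, and of Tlr1 and Tlr2 are not shown. Capitals mark the matches.
Tlr8, chrX:167264280-167264579, minus strand: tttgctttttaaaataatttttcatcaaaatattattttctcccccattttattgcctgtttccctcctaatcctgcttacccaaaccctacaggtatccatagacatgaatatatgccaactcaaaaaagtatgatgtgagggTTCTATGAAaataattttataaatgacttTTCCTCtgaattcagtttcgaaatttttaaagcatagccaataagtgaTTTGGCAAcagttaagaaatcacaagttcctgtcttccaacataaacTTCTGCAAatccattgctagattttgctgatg
Tlr13, chrX:106143025-106143324, plus strand: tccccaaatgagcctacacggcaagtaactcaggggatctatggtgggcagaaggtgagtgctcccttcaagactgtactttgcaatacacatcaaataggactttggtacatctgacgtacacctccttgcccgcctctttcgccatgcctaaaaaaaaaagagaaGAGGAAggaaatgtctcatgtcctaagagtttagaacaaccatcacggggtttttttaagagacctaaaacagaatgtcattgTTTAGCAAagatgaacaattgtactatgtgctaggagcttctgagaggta
Tlr6, chr5:64959117-64959416, minus strand: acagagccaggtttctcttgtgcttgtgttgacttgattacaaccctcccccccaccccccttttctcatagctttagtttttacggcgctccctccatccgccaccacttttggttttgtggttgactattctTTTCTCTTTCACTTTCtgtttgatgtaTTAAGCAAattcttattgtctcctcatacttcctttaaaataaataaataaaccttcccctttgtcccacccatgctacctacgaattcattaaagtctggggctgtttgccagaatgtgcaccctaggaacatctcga
Tlr6, chr5:64959999-64960298, minus strand: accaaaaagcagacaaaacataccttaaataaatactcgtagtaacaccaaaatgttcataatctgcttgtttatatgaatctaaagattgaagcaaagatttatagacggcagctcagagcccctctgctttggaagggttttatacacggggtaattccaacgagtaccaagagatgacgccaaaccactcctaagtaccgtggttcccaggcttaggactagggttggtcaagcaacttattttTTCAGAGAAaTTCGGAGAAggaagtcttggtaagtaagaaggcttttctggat
Tlr9, chr9:106222348-106222647, plus strand: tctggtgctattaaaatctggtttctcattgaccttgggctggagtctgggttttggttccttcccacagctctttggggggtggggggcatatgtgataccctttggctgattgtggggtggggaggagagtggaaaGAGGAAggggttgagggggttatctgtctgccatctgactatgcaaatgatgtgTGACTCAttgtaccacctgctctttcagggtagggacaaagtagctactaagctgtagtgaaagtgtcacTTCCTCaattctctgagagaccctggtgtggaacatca

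The Tlr8 window held 1 STAT site match 106 bases before the start, 1 PU.1 match and 2 C/EBP matches, and the Tlr13 window 1 PU.1 and 1 C/EBP match. Among the 32851 promoters of the same length, 28.3% held the PU.1 letters, 10.8% the C/EBP letters and 8.30% the STAT letters. In Tlr6, the first window held 2 overlapping matches to the interferon-stimulated response element, whose letters occurred in 3.44% of all promoters, and 1 C/EBP match. The second window held 2 STAT matches around the start. Tlr9 held 2 PU.1 matches and 1 AP-1 match, the latter found in 7.81% of promoters. The NF-kappaB letters, in 0.411% of promoters, were found in Tlr3 alone among the members. Of the 10 member promoters, 4 held the PU.1 letters, 4 the C/EBP letters and 3 the STAT letters. Tlr2, which was called, and Tlr5, which was not, held no match to any of the motifs. Whether matches go with the calls was not tested. A match is a description of these letters and not evidence of binding.

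Genes that serve the receptors were listed by role. Of 89 listed genes, 84 were tested by their brightest probe, and 30 of them (35.7%) were higher and 0 lower, beside 7.12% higher and 5.39% lower of all genes. By role, 7 of 11 transcription factors, 6 of 10 target cytokines and chemokines and 2 of 19 kinases and ubiquitin ligases were higher. Dnase1l3, Ccl3 and Il10, among the 30, were well above background on 3 LPR and 0 MRL arrays. They were thus tested through the LPR arrays. Differences between the roles were not tested.

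Of the co-receptors and surface accessory proteins, 3 of 7 were higher. Ly86, the partner of the Toll-like protein Cd180 on B cells and myeloid cells, rose by 2.74 on the log2 scale (adjusted p = 0.0006 in limma). Its log2 signals were -1.12, -0.91 and -0.15 in MRL mice and 1.90, 2.12 and 2.02 in LPR mice, with no overlap. Cd14 and Lbp, which pass lipopolysaccharide to Tlr4, rose by 0.92 and 0.88. Ly96, the subunit of the Tlr4 complex that binds lipopolysaccharide, did not pass, with a log2 change of -0.16 (adjusted p = 0.619 in limma). Cd180 itself did not pass at its brightest probe, at which its log2 change was -0.11, but 3 of its 4 tested probes were higher.

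Of the chaperones and trafficking factors of endosomal receptors, 3 of 10 were higher. Unc93b1, which carries Tlr3, Tlr7, Tlr9 and Tlr13 from the endoplasmic reticulum to endosomes, gave log2 signals of -0.20, -0.20 and -0.10 in MRL mice and 1.65, 1.84 and 1.71 in LPR mice. Its log2 change was 1.90 (SE 0.10, adjusted p = 0.0001 in limma), and each group lay within a range of 0.19. Rab7b, a small GTPase of late endosomes, and Slc15a3, a transporter of peptides out of endosomes and lysosomes, rose by 2.53 and 2.39. Hsp90b1, the chaperone of nearly all Toll-like receptors, Cnpy3, Cnpy4, Lrrc59, Slc15a4, Ap3b1 and Hps1 did not pass, with log2 changes from -0.13 to 0.20.

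Of the lysosomal proteases and nucleases, 4 of 10 were higher. Ctss, a cysteine protease of antigen-presenting cells, rose by 3.53 (adjusted p = 0.0005 in limma). Pld4, an exonuclease that degrades single-stranded nucleic acid in endosomes, rose by 3.28 (adjusted p = 0.0001 in limma). Dnase1l3, a secreted nuclease of chromatin, did not stand well above background in MRL mice, and its level in LPR mice was at least 4.57-fold higher. On the signals as measured its adjusted p was 0.0020 in limma. Ctsb, Ctsl, Lgmn and Dnase2a lay between -0.04 and 0.11 and did not pass.

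Of the 5 tested adaptors, 1 was higher. Pik3ap1, which links the receptors to phosphoinositide 3-kinase, rose by 1.47 (adjusted p = 0.0013 in limma). Myd88, the adaptor of all the receptors except Tlr3, gave log2 signals of 0.45, 0.39 and 0.55 in MRL mice and 0.93, 1.13 and 0.77 in LPR mice. The groups did not overlap, but its log2 change of 0.48 (SE 0.13, adjusted p = 0.0516 in limma) narrowly missed the threshold. Tirap, Ticam1 and Sarm1 lay between -0.02 and 0.02 and did not pass, and Ticam2 was too dim to test. Among the kinases, Ikbke and Map3k8 rose by 1.30 and 1.20, whereas Irak1, Irak4, Traf6 and Tbk1 were among the 17 that did not pass. Map3k7 and Chuk, also among the 17 by their brightest probes, each had 1 probe that was lower.

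Of the transcription factors, the interferon regulatory factors Irf8, Irf7 and Irf5 rose by 1.58, 1.40 and 1.09 on the log2 scale. Irf7 drives type I interferon genes downstream of Tlr7 and Tlr9, and its log2 signals were 1.44, 1.60 and 1.76 in MRL mice and 2.81, 3.15 and 3.05 in LPR mice. The groups did not overlap (adjusted p = 0.0009 in limma). Nfkb1, Nfkb2, Rel and Relb rose by 0.61 to 0.82. Rela and Irf3 did not pass at their brightest probes, although 1 of 2 tested Rela probes was higher.

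Of the inhibitors of the pathway, 4 of 12 were higher. Socs1 and Socs3, feedback inhibitors of cytokine signalling, rose by 2.76 and 2.19 (adjusted p = 0.0001 and 0.0007 in limma). Tnfaip3, the deubiquitinase A20, rose by 1.21, and Trafd1 by 0.76. Irak3, the inhibitory kinase of myeloid cells, did not pass at its brightest probe (log2 change 1.13, adjusted p = 0.0679 in limma), although 1 of its 3 tested probes was higher. At their brightest probes Tollip, Sigirr, Nfkbia, Rnf216, Cyld, Otulin and Zc3h12a lay between -0.10 and 0.21 and did not pass, although 1 of 2 tested Zc3h12a probes was higher.

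Of the target cytokines and chemokines, Ccl4 and Ccl5, which attract T cells and monocytes, rose by 4.71 and 4.69 on the log2 scale, the largest changes of the list among genes above background in both groups. Ccl3 and Il10 did not stand well above background in MRL mice, and their levels in LPR mice were at least 13.4-fold and 2.31-fold higher. On the signals as measured their adjusted p was 0.0012 and 0.0002 in limma. Cxcl10, a chemokine induced by interferons, and Il1b rose by 2.43 and 2.26. Tnf and Il12b did not pass at their brightest probes (0.16 and 0.19), although 1 of 2 tested Tnf probes was higher. Il6, which was near background in 2 MRL mice, did not pass either. Il12a, Il23a, Ifnb1 and Cxcl2 were too dim to test.

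**Figure D4:**
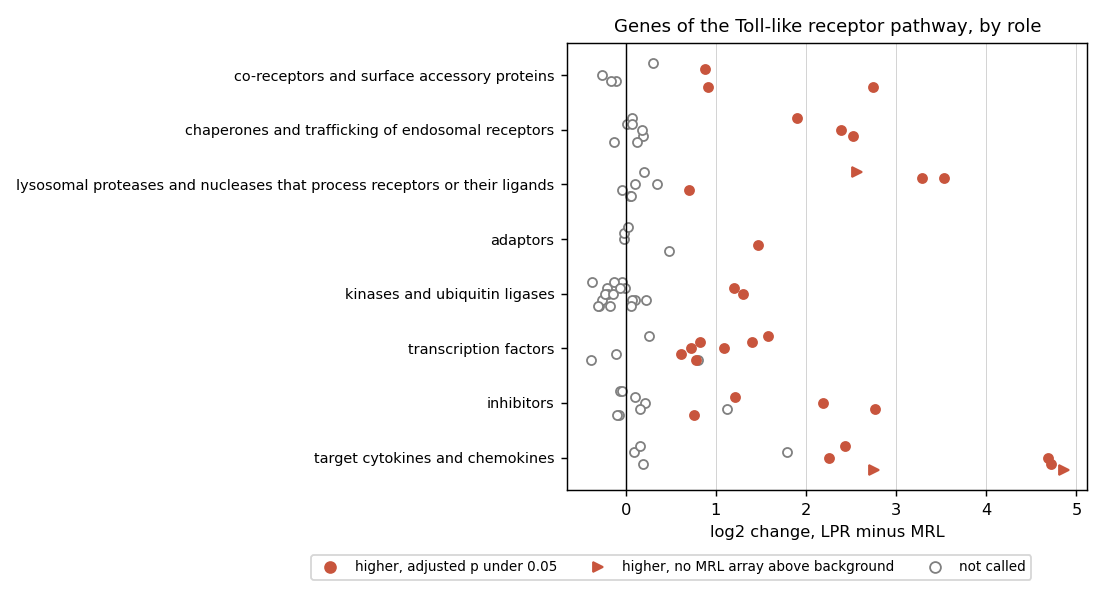
Log2 change, LPR minus MRL (x axis), of the 84 tested pathway genes by role (y axis), 1 point per gene, filled red where the adjusted p was under 0.05 and the change positive. Triangles mark genes with no MRL array above background, whose points are not bounds. The 30 filled points lie to the right of 0 and the open ones mostly near it, with 2 of 19 filled among kinases and ubiquitin ligases.

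Markers of leukocytes were counted in the same kidneys, and their counts stand beside the same 7.12% higher and 5.39% lower of all genes. Of the macrophage markers 6 of 8 were higher, and the mean log2 level of the list was -0.10 to 0.49 in MRL mice and 1.84 to 1.96 in LPR mice. Itgam and Mertk did not pass, with log2 changes of -0.08 and -0.47. Dendritic cell markers were higher at 5 of 7, with list levels of -4.17 to -4.00 in MRL mice and -2.49 to -2.20 in LPR mice. Of these, Xcr1 was not well above background in MRL mice. Zbtb46 and Cd209a of the same list did not pass, with log2 changes of 0.02 and -0.38. T cell markers were higher at 5 of 6, and their list levels were -2.05 to -1.79 in MRL mice and 0.48 to 0.71 in LPR mice. The rises ran from 0.53 at Cd4 to 4.64 at Cd2. Cd8a did not pass, with a log2 change of 0.03 (adjusted p = 0.904 in limma), and Trac had no probe under that name.

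Of the B cell markers 3 of 6 were higher (list levels -3.83 to -3.62 and -2.70 to -2.38). At their brightest probes Ms4a1, Pax5 and Fcer2a of this list gave log2 changes of -0.70, -0.36 and -0.21 and did not pass. Ms4a1 narrowly missed the threshold there (adjusted p = 0.0504 in limma), with all LPR mice below all MRL mice. Yet 1 of 2 tested Ms4a1 probes was higher. Blk was too dim to test. Of the neutrophil markers 2 of 6 were higher (list levels -3.16 to -2.77 and -2.10 to -1.16), and of the plasmacytoid dendritic cell markers 2 of 6 (list levels 0.50 to 0.57 and 1.36 to 1.56). The latter were Spib and Bst2, which rose by 3.40 and 1.91, whereas Siglech gave a log2 change of -0.10 at its 1 tested probe of 3 (adjusted p = 0.595 in limma). That Siglech probe was bright, at 6.54 to 6.82 in MRL mice, and whether it reads plasmacytoid dendritic cells was not tested. Kidney epithelial markers, which label the tissue, were bright, with list levels of 4.34 to 4.50 in MRL mice and 4.24 to 4.36 in LPR mice, and 1 of 8, Lrp2, was lower (adjusted p = 0.0497 in limma). Of 5 endothelial markers 1, Kdr, was lower. Neither count was stable, with 0 to 3 epithelial and 0 to 2 endothelial markers called over the alternatives. The part of the leukocyte markers in the receptor changes was not tested.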

How the data were processed

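Kidney RNA of 3 MRL and 3 LPR mice was labelled with Cy3 and hybridized to 6 one-colour Agilent SurePrint G3 mouse arrays on 1 slide. RNA isolation is given as Trizol in the paper and as a column kit in the sample labels. The authors deposited, for each spot, the intensity from Agilent Feature Extraction 12.0.3.1 (version per the labels), with the background subtracted and no normalization between arrays, and a second table of the same intensities scaled to each array's 75th percentile. Probe positions in the files are on mm9. The depth of an array has no count, and the number of arrays limits the precision.

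Outlier and control spots were left out, log2 intensities were expressed relative to the 75th percentile of the array, and replicate spots of a probe were averaged. Probes that 3 or more of the 6 arrays had well above background were tested with limma 3.58.1 in R 4.3.3 without covariates, with Benjamini-Hochberg adjustment over all 39924 such probes and a threshold of 0.05. The brightest tested probe stood for a gene. Where no array of MRL mice was above background, a rise is a lower bound, for which the MRL signals were lifted to the detection limit of their array (the weakest signal called well above background). The p beside such a bound is from limma on the signals as measured, not on the lifted ones. Gene names are those of the array. All 18 member probes with a RefSeq accession matched the same symbol in a current RefSeq table (GRCm38.p6), which was used for names and promoters only, and the other 3 kept the name in the files. Some promoters and some genes are not analysed here.

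The members, the pathway and marker lists and the tests were chosen with earlier results of these data known. All members were named, and in each role the up to 3 largest rises and up to 2 largest falls among called genes. Inhibitors, adaptors and chaperones not called were named as well. Single genes outside this rule (Ly96, Cd180, Ctsb, Ctsl, Lgmn, Dnase2a, Irak1, Irak4, Traf6, Tbk1, Map3k7, Chuk, Nfkb1, Nfkb2, Rel, Relb, Rela, Irf3, Il10, Tnf, Il6, Il12b, Cxcl10, Il1b, Itgam, Mertk, Zbtb46, Cd209a, Spib, Bst2, Siglech, Ms4a1, Pax5, Fcer2a, Lrp2 and Kdr among them) were named after their values were seen. Of the T cell markers, Cd2, Cd4 and Cd8a were named in the same way. No test was made of the lists. The slide row and column of an array were taken from the deposited files. Alternatives covered background correction, normalization, the filter, the variance prior, slide position, the replicate number, the choice of probe, the methods' t-test of the study, and leaving out each mouse. With 3 mice a group, the smallest p of an exact test is 0.1, so none was used. No label says more of the mice than strain, sex, age and number, so p-values measure the spread between these 6 kidneys. On simulated data for LPR against MRL with 39924 probes and 200 changed probes, equally many at each of 2 sizes, limma recovered 51 at a log2 change of 1 and 88 at 2, with 12 false calls and 0 of the wrong sign. In the measured data limma called 2610 probes higher and 2423 lower, many more than the 200 changed in the simulation. Recovery under Benjamini-Hochberg adjustment depends on that share, so the simulated counts do not give the power of the tests here. Figures were drawn with matplotlib 3.10.9.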

Additional observations from a re-analysis of the deposited data

How the results depend on the processing

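Across 24 alternatives Tlr6, Tlr8 and Tlr13 passed in limma and in the methods' t-test under all of them, and no call changed sign. Tlr8 ranged from 1.37, under normexp background correction, to 2.97. The receptors called numbered 3 genes with the slide row as a block. The methods' t-test with Benjamini-Hochberg adjustment called 5 probes and 3 genes on log2 values, and 4 probes and 3 genes on linear values. The endosomal minus surface difference was 0.094 where all probes of each gene were averaged. Leaving out each mouse in turn gave 7 to 9 probes and 4 to 6 genes, a class difference of -0.68 to -0.37, and 24 to 29 pathway genes. Tlr2 lost its call without MRL 1, MRL 2, LPR 1 or LPR 3, and the brighter Tlr7 probe without MRL 1, MRL 3, LPR 2 or LPR 3. Of the marker lists, those of kidney epithelium (0 to 3 called) and endothelium (0 to 2) moved most often, neutrophil markers ran from 0 to 3, and macrophage and dendritic cell markers numbered 3 under 1 alternative each. The Fas probe was not called under any, and its log2 change ran from -0.63 to 0.71, positive where its probes were averaged.

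Same-numbered mice correlated at 0.115, 0.020 and 0.005 in their deviations from the group means. These values cannot settle whether the replicate numbers in the labels pair the mice, since different-numbered mice were not compared. With the replicate block, 9 probes, 6 genes and 29 pathway genes were called. Over all probes the split of calls moved with the setting. Higher calls were 51.9% of all calls, against 35.8% with normexp, where 4542 rather than 2423 probes were lower, and 76.3% with the slide row as a block. Dim probes limit the rest, since 5 of the 21 receptor probes were too dim to test. The cause of these shifts was not tested.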

Other observations

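The array also holds the other mouse Toll-like receptors, which are no members of the set above. Tlr11, a receptor for a protozoan profilin in endosomes, gave log2 signals of -4.86, -4.74 and -4.98 in MRL mice and -4.24, -3.92 and -3.69 in LPR mice. The groups did not overlap, and the log2 change was 0.91 (SE 0.16, adjusted p = 0.0136 in limma). Tlr12, which senses the same ligand, lay between 3.06 and 3.39 in MRL mice and between 3.22 and 3.47 in LPR mice. Its groups overlapped, with a log2 change of 0.12 (95% interval -0.20 to 0.44, adjusted p = 0.566 in limma).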
